A study of Homo sapiens with 13 samples.

Results

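The gene described is ERG, in the Nalm6 line, through the peaks that antibodies to LEF1 and TCF7L2 gave over it and its surroundings. ERG lies on the minus strand of chromosome 21 (hg19) from about 39752 to 40034 kb, a length of 282 kb, and the window used ran from 39650 to 40135 kb, which adds about 100 kb on both sides. Every peak of the 12 deposited lists that overlapped this window was taken, whatever its strength. There were 1174 such peaks of 3429979 in all, and the rest of chromosome 21 held 41939.

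The data are CUT&RUN peak lists, in which an antibody directs a nuclease to the chromatin where its target sits and the released DNA is sequenced. Nalm6 is a human cell line, long established, from a B-cell acute lymphoblastic leukaemia, here grown in medium with charcoal-stripped serum, which removes most steroid hormones. Cells received 5 µM of the synthetic glucocorticoid prednisolone for 24 h or served as controls, which one label field gives as untreated and the protocol as vehicle-treated. Both treatments were profiled with an antibody to LEF1 and one to TCF7L2, which makes 4 groups of 3 replicates, and the series describes replicates as independent experiments. The IgG sample was not analysed here. A peak list holds no expression or fusion readout, so neither the B-cell identity nor a DUX4 rearrangement of the line could be checked against these data.

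ERG is a transcription factor of the ETS family needed for the maintenance of blood stem cells and for early B-cell development. Leukaemias with a DUX4 rearrangement, of which Nalm6 is a known example, use a start site inside the gene, so that a shortened ERG protein is made, and many also carry deletions within ERG. LEF1 and TCF7L2 belong to the TCF/LEF family, which binds DNA through an HMG box, and they bring β-catenin to target genes when canonical Wnt signalling is on. Prednisolone acts through the glucocorticoid receptor and is a standard drug in this leukaemia.

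The gene has several starts, and their promoters differ in base composition. RefSeq on GRCh38.p14 gave 4 ERG starts, of which the second lies 75.7 kb and the third 162 kb downstream of the first. The fourth lies 27 bp beyond the third. The 250 bases upstream of the first and the third are shown, 5′ to 3′ on the minus strand, because the data below contrast the start of the gene with its interior. They occupy chr21:38660668-38660917 and chr21:38498505-38498754 on GRCh38.p14, and their GC content is 77.2% and 46.4%, against a median of 58% over all promoters of the table. Capitals would mark the TCF/LEF core CTTTGA or the glucocorticoid receptor core ACANNNTGT on either strand. Neither is present in these 250 bases at any of the 4 starts, so the sequences are in lower case throughout.
ERG start 1: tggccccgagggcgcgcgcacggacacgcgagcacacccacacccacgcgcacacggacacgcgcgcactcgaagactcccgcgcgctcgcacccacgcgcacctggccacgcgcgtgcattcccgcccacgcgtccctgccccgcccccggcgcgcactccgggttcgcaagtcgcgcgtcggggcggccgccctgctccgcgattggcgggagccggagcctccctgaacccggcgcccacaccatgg
ERG start 3: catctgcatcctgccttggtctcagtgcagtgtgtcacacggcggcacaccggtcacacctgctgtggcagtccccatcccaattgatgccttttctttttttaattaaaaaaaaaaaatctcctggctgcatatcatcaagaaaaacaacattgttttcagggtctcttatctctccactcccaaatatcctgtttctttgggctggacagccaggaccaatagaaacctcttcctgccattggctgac
Over 35116 promoters of the same length, 11.2% held the first motif and 4.61% the second. The peak lists are on hg19, no hg19 annotation was used, and coordinates were not converted between builds. Peaks are therefore placed by their distance from the start of the gene and were not assigned to exons, introns or the internal start.

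The lists differed in length and in strength, and the depth in reads is unknown. They held between 128863 and 395786 peaks and reached down to a −log10 p-value of 1.30. Many counts below use top peaks, the 20000 with the highest −log10 p-value of a list, with all peaks equal at the limit kept. The last of these had a −log10 q-value of 5.49 to 6.62 in the LEF1 lists and of 0.390 to 0.996 in the TCF7L2 lists, so a TCF7L2 top peak is a weaker call. Equal peaks raised the top lists to 27881, 28385 and 23399 peaks in TCF7L2 control 2, prednisolone 1 and prednisolone 3. The libraries also fell into 2 sets by the length of their shortest peak, which for LEF1 was 164 to 165 bp in control 1 and prednisolone 2 and 3, and 187 to 197 bp in the others. The TCF7L2 libraries split by the same numbers, at 193 to 201 bp and 158 to 167 bp. The labels name no such division, and differences within each set are given beside the tests. Control 1 with prednisolone 2 and 3 is called set A, and control 2 and 3 with prednisolone 1 set B.

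The ERG window was rich in LEF1 peaks. The LEF1 control lists had 123, 93 and 102 peaks in it and the prednisolone lists 109, 136 and 75 (replicates 1, 2 and 3). The TCF7L2 control lists had 116, 79 and 90, and the prednisolone lists 90, 112 and 49. The lowest count for both antibodies came from prednisolone 3, whose lists were also the shortest. Per megabase the window held 2.23 to 3.71 times the peaks of the whole list for LEF1 and 1.53 to 2.17 times for TCF7L2. Against the rest of chromosome 21 these ratios were 2.88 to 4.70 and 1.83 to 2.44. Lengths ran from the first base of a chromosome to its last peak, and any stretch that allows no peaks was included. Such stretches raise the ratios, so those for chromosome 21 and for the whole list are not comparable. LEF1 peaks covered 14.1% to 20.3% of the window, where they covered 2.46% to 5.55% of the genome. TCF7L2 peaks covered 4.79% to 11.1% of the window and 1.70% to 4.86% of the genome.

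The ERG window was set against 5965 windows of 485 kb tiled along the genome. By peaks of any strength, 93.1% to 98.1% of the other windows had fewer in the same LEF1 library and 81.2% to 99.8% in the same TCF7L2 library. The ERG window held 21, 19 and 18 LEF1 top peaks in control libraries and 20, 13 and 15 after prednisolone, where the average window held 3.35 to 3.45. Between 96.2% and 99.6% of the other windows had fewer LEF1 top peaks in the same library. For TCF7L2 the counts were 12, 12 and 16 in control libraries and 6, 12 and 11 after prednisolone, with an average of 3.35 to 4.76 per window. Between 66.2% and 98.4% of the windows had fewer, and the lowest value belonged to prednisolone 1 with its 6 top peaks. The LEF1 top peaks of the window were wide, with a median width of 1896 ± 224 bp in control and 1812 ± 317 bp in prednisolone libraries, against 1270 ± 124 and 1252 ± 118 bp over the lists (SD, n = 3 each). The TCF7L2 widths were 799 ± 177 and 501 ± 146 bp in the window and 520 ± 75.0 and 432 ± 62.6 bp over the lists (SD, n = 3 each).

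**Figure D1:**
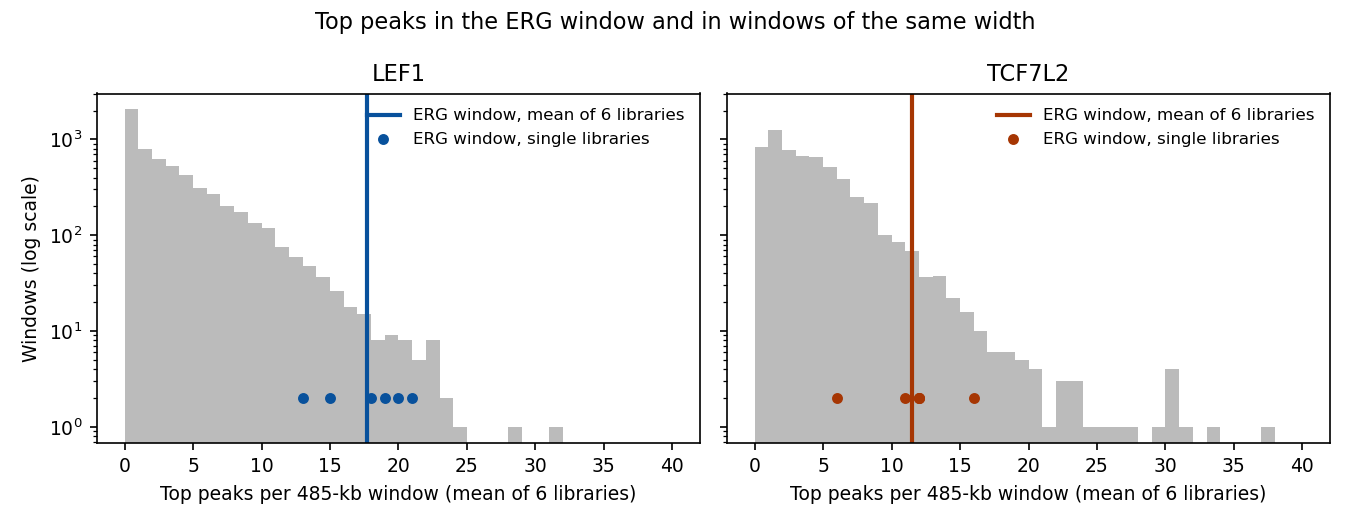
Number of windows (vertical axis, log scale) by their mean number of top peaks over 6 libraries (horizontal axis), for LEF1 and TCF7L2; grey bars are 5965 windows of 485 kb, the line is the mean of the ERG window and the dots are its 6 libraries. The LEF1 dots lie between 13 and 21 and the TCF7L2 dots between 6 and 16, both to the right of most windows.

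Recurrence between replicates was set beside that of the whole list, as a description. All LEF1 top peaks of the window, in each of the 6 libraries, overlapped a peak that another replicate of their group had at any strength, as did 99.7% to 99.98% of all LEF1 top peaks. For TCF7L2 this held for 58.3% to 91.7% of the top peaks of the window, against 49.1% to 78.9% over the list. In each of the 6 TCF7L2 libraries the share was higher in the window than in its list. Over the full lists the shares were 61.0% to 97.3% in the window against 40.7% to 90.3% for LEF1, and 33.0% to 51.1% against 18.1% to 33.0% for TCF7L2. Peaks were also denser and covered more of the window than of the genome, and the part of that density in the recurrence was not tested.

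Within the gene the peaks gathered in the downstream portion. The gene was cut into 5 parts of 56.4 kb, numbered from its start. Of the 106 LEF1 top peaks, summed over 6 libraries, part 4 held 41 (38.7%), part 5 held 26 (24.5%) and the 3′ flank 23 (21.7%). Part 3 held 13, part 1 held 1, part 2 held 0 and the 5′ flank held 2. The 69 TCF7L2 top peaks were also most numerous in part 4, with 33 (47.8%) in part 4, 11 in part 5, 8 in the 5′ flank, 7 each in part 3 and the 3′ flank, 3 in part 2 and 0 in part 1. The flanks held 21.7% (3′) and 1.89% (5′) of the LEF1 top peaks and 10.1% and 11.6% of those of TCF7L2, and these distributions were not compared by a test. In gene order the protein-coding neighbour of ERG is KCNJ15 on the 3′ side and ETS2 on the 5′ side. Peaks in the flanks were not assigned to any gene.

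The share of bases under a peak of any strength showed the same contrast. LEF1 peaks covered 3.42 ± 0.625% of part 1 in control and 2.98 ± 1.25% in prednisolone libraries (SD, n = 3 each). Their coverage of the whole genome was 4.39 ± 0.549% and 4.16 ± 1.56% (SD, n = 3 each), so part 1 was close to the genome. In part 4 LEF1 peaks covered 53.3 ± 3.88% and 49.0 ± 4.94%, and in part 5 36.1 ± 1.02% and 33.7 ± 2.97%. Every LEF1 library had over 10 times the coverage in part 4 that it had in part 1. TCF7L2 peaks covered 5.55 ± 3.40% and 5.77 ± 3.87% of part 1, and 25.6 ± 5.20% and 15.5 ± 1.47% of part 4. The TCF7L2 control libraries gave 29.9%, 19.8% and 27.2% in part 4, and the prednisolone libraries 14.2%, 17.1% and 15.1%. These ranges did not overlap, and 8.42% of 50829 segments of this length along the genome had lower TCF7L2 coverage in every prednisolone library than in every control library. The coverage of the whole TCF7L2 lists was 4.85%, 3.46% and 3.30% in control and 3.23%, 4.86% and 1.70% in prednisolone libraries. Part 4 was singled out here after its values were seen, and no test was made of it.

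**Figure D2:**
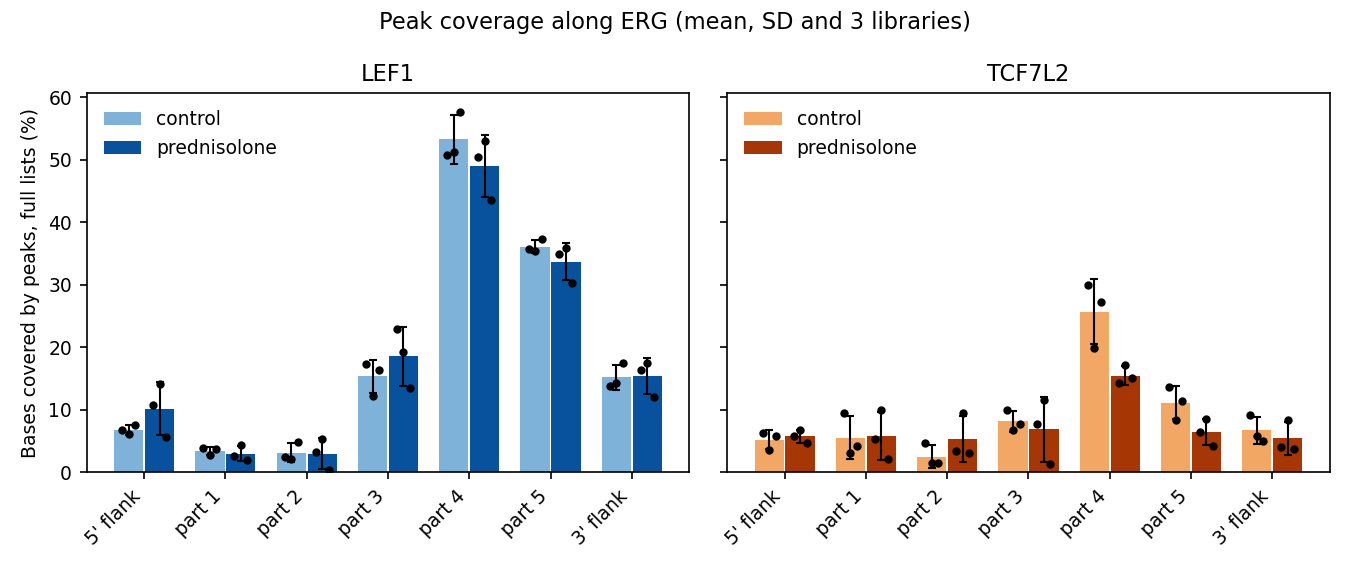
Percent of bases covered by peaks of any strength (vertical axis) in the 5′ flank, the 5 parts of ERG numbered from its start and the 3′ flank (horizontal axis), by treatment; bars are means of 3 libraries, error bars SD and dots single libraries. LEF1 coverage is 53.3% and 49.0% on average in part 4 and 3.42% and 2.98% in part 1, and TCF7L2 coverage is 25.6% and 15.5% in part 4.

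LEF1 peaks were few at the start of the gene. That start is taken at 40034 kb, known here only to the kb, and was not matched to ERG start 1 printed above. No LEF1 list had a peak within 1 kb of it, and within 5 kb LEF1 control 1 alone had a peak, at rank 90035. The whole LEF1 lists had 41.6 to 126 peaks per megabase. Spread evenly, these would leave most spans within 1 kb of a point empty in a single list. Whether LEF1 peaks were fewer within 1 or 5 kb of the start than elsewhere was not tested. Among the TCF7L2 lists 3 of 6 had a peak within 1 kb, namely control 1 at rank 88851, control 3 at rank 63732 and prednisolone 2 at rank 10077. The last was a top peak, at chr21:40034343-40034854, with an authors' fold of 3.38 and a −log10 q-value of 0.614. Within 5 kb the TCF7L2 control lists had 3, 1 and 2 peaks and the prednisolone lists 2, 1 and 1. The best of these had −log10 q-values of 0, 0 and 0.0760 in control and 0, 0.614 and 0.366 in prednisolone lists, so they were weak calls. The whole TCF7L2 lists had 46.6 to 128 peaks per megabase. The difference between the antibodies at the start was not tested.

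**Figure D3:**
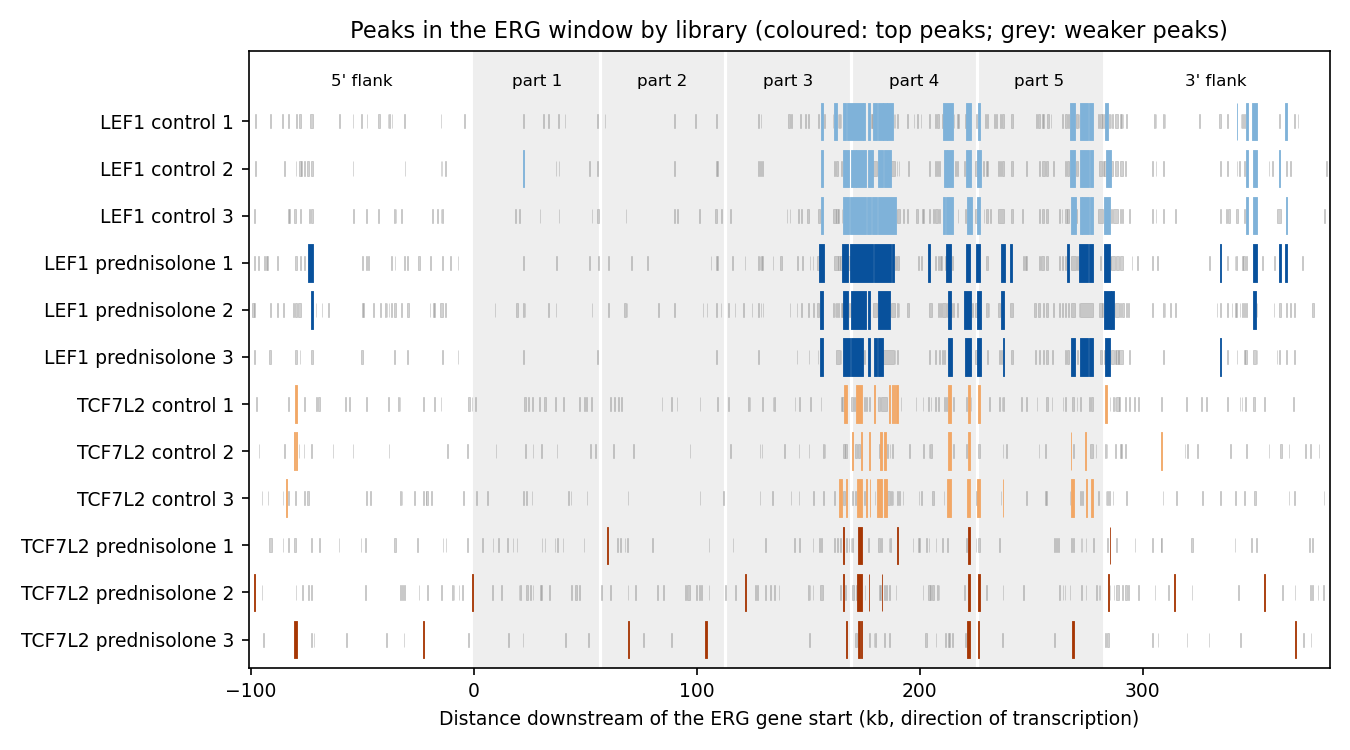
Peaks of each of the 12 libraries (rows) by their distance downstream of the ERG start in kb (horizontal axis, in the direction of transcription); tall coloured bars are top peaks and short grey bars are weaker peaks. The coloured LEF1 bars start at about 155 kb, apart from 1 in part 1 and 2 in the 5′ flank, and are densest in part 4.

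The top peaks of the 12 lists merged into 37 regions in the window, of 112514 in the genome. Of these, 11 had a top peak in all 3 libraries of at least 1 group and are described by position. The other 26 include 20 with a top peak in a single library, of which 13 were TCF7L2. None of the 11 lay in the first 154.9 kb of the gene, and 3 lay beyond its 3′ end as taken here, 282 kb from the start. RefSeq on GRCh38.p14 gives ERG a length of 294.5 kb, and at that length the region at 284.2 kb would lie inside the gene. Ranks below count from the highest −log10 p-value of a library's own list, and are given for control 1, 2 and 3 and then prednisolone 1, 2 and 3.

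The longest region spanned chr21:39844595-39868743, 24149 bp, from 165.3 to 189.4 kb downstream of the start. All 12 libraries had a top peak in it, and it was the longest of all 112514 merged regions. That place depends on chains of overlapping peaks. From the LEF1 control lists alone the longest region here was 10315 bp (11th of 29491), from the LEF1 prednisolone lists 10265 bp (8th of 28975), and with peaks joined only at 50% overlap 11608 bp (9th of 114557). A single LEF1 peak of prednisolone 1, chr21:39854773-39865037, was the second longest of 20178 in its list. In the other LEF1 lists the longest peak of the window came 13th, 388th and 22nd in control 1, 2 and 3, and 22nd and 75th in prednisolone 2 and 3. LEF1 top peaks covered 19.0, 16.9 and 21.8 kb of the region in control and 21.4, 15.9 and 13.2 kb in prednisolone libraries. TCF7L2 top peaks covered 5.43, 2.84 and 6.98 kb in control and 1.89, 2.73 and 2.25 kb in prednisolone libraries. TCF7L2 top peaks were spread over the region, and merging the 6 TCF7L2 lists gave 1 stretch, chr21:39859656-39862497, with a top peak in all 6 libraries. It held the best TCF7L2 peak of the region in control 1 and the 3 prednisolone libraries, but not in control 2 (rank 15610, against 5049 elsewhere in the region) or control 3 (rank 8864, against 3935).

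The strongest LEF1 peak of this long region ranked higher after prednisolone. Its best LEF1 ranks were 5264, 5110 and 7600 in control libraries and 1138, 1131 and 1550 in prednisolone libraries, with no overlap between the groups. The 6 LEF1 lists each had a summit between 39860299 and 39860398, which makes it a single position 173.6 to 173.7 kb into the gene. The peaks at that summit had ranks of 5690, 5110 and 7865 in control and 1138, 1131 and 1550 in prednisolone libraries. The authors' folds there were 5.38, 5.34 and 4.55, and 10.9, 11.1 and 7.79. Set A gave 5264 against 1131 and 1550, and set B 5110 and 7600 against 1138. Without overlap between the groups, the direction within each set was fixed in advance. The TCF7L2 ranks in the region were 1782, 5049 and 3935 in control and 5518, 1788 and 4633 in prednisolone libraries, and these overlapped.

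A region 212.8 kb into the gene, chr21:39818951-39823518, went the other way. It held the best LEF1 peak of the window in each control library, at ranks 558, 671 and 656. After prednisolone its LEF1 ranks were 5325, 4934 and 8133, again with no overlap between the groups. The authors' folds were 14.1, 12.5 and 10.6 in control and 6.80, 6.76 and 5.43 in prednisolone libraries. Set A gave 558 against 4934 and 8133, and set B 671 and 656 against 5325, where the direction was again fixed by the lack of overlap. TCF7L2 had top peaks here in control libraries only, at ranks 6275, 13163 and 6465. In the full TCF7L2 lists prednisolone 1 and 3 had a weaker peak at ranks 139748 and 29171, and prednisolone 2 had none.

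These rank shifts were counted against all regions with a top peak in all 6 libraries of an antibody. Of 7584 such LEF1 regions in the genome, 11.5% ranked better in every prednisolone library than in every control library and 14.7% ranked worse. In the window 6 regions qualified, of which 1 ranked better (177.3 kb) and 1 worse (212.8 kb). Of 1823 TCF7L2 regions in the genome 10.8% ranked better and 11.5% worse, and of the 2 in the window none did either. With so few regions the window's counts cannot be set apart from the background, and a single region could not go below p = 0.1 in an exact permutation test of 3 libraries against 3.

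Regions with a top peak in all 3 libraries of one treatment and in none of the other are called gained or lost. Of 22 LEF1 regions in the window 1 was gained and 1 lost, where the genome had 2.78% gained and 1.93% lost of 37318. The gained region, chr21:39795916-39797525 (237.3 kb), had ranks 11758, 12317 and 17324 after prednisolone, and weaker peaks at ranks 24965, 55459 and 124481 in the control lists. The lost region, chr21:39686645-39687791 (346.8 kb, in the 3′ flank), had ranks 12128, 19135 and 8815 in control lists and 39052, 87634 and 40125 after prednisolone. Both were thus present in all 6 full LEF1 lists and differed in rank. Of 39 TCF7L2 regions none was gained and 1 was lost, where the genome had 0.302% gained and 1.00% lost of 97721. The lost one was chr21:39819769-39821627, the TCF7L2 peak inside the region at 212.8 kb.

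Both factors met at a region 221.6 kb into the gene, chr21:39810619-39814088, in all 12 lists. Its LEF1 ranks were 14055, 3875 and 2392, then 3256, 9714 and 3159. Its TCF7L2 ranks were 7390, 3580 and 1548, then 1878, 6834 and 1291. It held the best TCF7L2 peak of the window in 4 of 6 libraries, and the groups overlapped for both antibodies. The long region gave the best TCF7L2 peak in the remaining TCF7L2 libraries, control 1 and prednisolone 2.

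In the remaining regions described here top peaks came from more LEF1 than TCF7L2 libraries. Near the 3′ end of the gene, chr21:39748312-39751321 (284.2 kb) had LEF1 ranks of 2556, 2059 and 3727 in control and 8731, 7480 and 1446 in prednisolone libraries. The last of these was the best peak of its library in the window. TCF7L2 had top peaks there in control 1 and in prednisolone 1 and 2. At chr21:39756043-39762396 (274.8 kb, 6354 bp) the LEF1 ranks were 3221, 5912 and 3712 in control libraries, 4771 and 12861 in prednisolone 1 and 3, and no top peak in prednisolone 2, and TCF7L2 control 2 and 3 had top peaks at 16514 and 14490. At chr21:39806587-39808786 (226.3 kb) all 6 LEF1 libraries had a top peak, at ranks between 4408 and 18522, and 4 of 6 TCF7L2 libraries did. At chr21:39876878-39879054 (156.0 kb), the most upstream of the 11, all 6 LEF1 libraries and no TCF7L2 library had one. At chr21:39763888-39766413 (268.8 kb) the LEF1 controls and prednisolone 3 had a top peak, as did TCF7L2 control 2 and 3 and prednisolone 3 at ranks 18342, 7015 and 10742. At chr21:39682614-39684708 (350.3 kb) the LEF1 controls and prednisolone 1 and 2 had one, and no TCF7L2 library did.

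**Figure D4:**
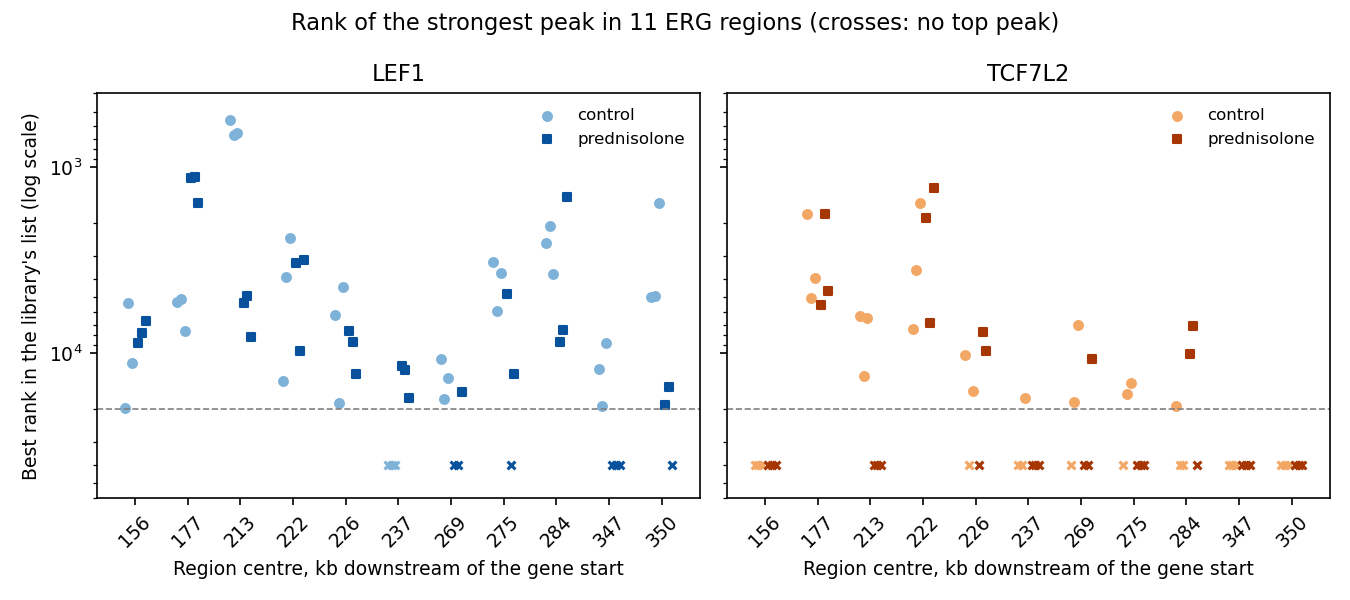
Best rank of a top peak in each library (vertical axis, log scale, strongest at the top) in 11 regions ordered by distance downstream of the ERG start in kb (horizontal axis), for LEF1 and TCF7L2; circles are control and squares prednisolone libraries, crosses mark libraries with no top peak, and the dashed line is rank 20000. The LEF1 squares lie above the circles at 177 kb and below them at 213 kb.

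The prednisolone and control libraries were compared as groups by 3 measures, none of which could pass a threshold of 0.05. The smallest p of an exact permutation test with 3 libraries against 3 is 0.1, and p-values were adjusted by Benjamini-Hochberg over the 9 tests reported here and below. LEF1 peaks in the window per 100000 peaks of the list were 43.3, 43.8 and 39.1 in control and 45.4, 35.0 and 58.2 in prednisolone libraries, with means of 42.0 ± 2.58 and 46.2 ± 11.6 (SD, n = 3 each). The difference was 4.13 (exact permutation test, two-sided, p = 0.7, adjusted 0.7). It was 3.28 within set A and 3.95 within set B, and −1.88 without prednisolone 3. TCF7L2 peaks per 100000 were 29.8, 23.9 and 26.7 in control and 28.4, 28.3 and 34.0 in prednisolone libraries, a difference of 3.42 (exact permutation test, p = 0.3, adjusted 0.386; 1.40 and 3.04 within sets A and B). Leaving out single libraries gave 1.53 (without prednisolone 3) to 4.90 (without control 1). The treatments overlapped for both antibodies. Among all windows, 4.88% had every LEF1 prednisolone library above every control and 5.70% below, and for TCF7L2 these shares were 5.21% and 4.95%.

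The number of top peaks differed by −3.33 for LEF1 (19.3 ± 1.53 in control, 16 ± 3.61 in prednisolone libraries, SD, n = 3 each; exact permutation test, p = 0.3, adjusted 0.386). The difference was −7 in set A and 1.5 in set B, so its direction did not hold within sets. For TCF7L2 it was −3.67 (13.3 ± 2.31 and 9.67 ± 3.21, SD, n = 3 each; exact permutation test, p = 0.3, adjusted 0.386), with −0.5 in set A and −8 in set B. Leaving out single libraries gave −5.33 to −1.83 for LEF1 and −4.83 to −1.83 for TCF7L2. The median distance of LEF1 summits from the start, within the gene, was 194.6, 207.8 and 198.5 kb in control and 188.4, 173.7 and 210.1 kb in prednisolone libraries. That difference was −9.55 kb (exact permutation test, p = 0.5, adjusted 0.562; −2.66 and −14.7 within sets A and B). It ranged from −19.2 kb without prednisolone 3 to −1.02 kb without prednisolone 2. For TCF7L2 the medians were 176.8, 177.6 and 181.6 kb and 168.2, 154.3 and 180.0 kb, a difference of −11.2 kb (exact permutation test, p = 0.3, adjusted 0.386; −9.73 and −11.4 within sets). It ranged from −17.4 kb without prednisolone 3 to −4.59 kb without prednisolone 2. The treatment effect was also compared between the antibodies. In a permutation test the TCF7L2 effect minus the LEF1 effect was −0.708 peaks per 100000 (p = 0.925), −0.333 top peaks (p = 1) and −1.65 kb (p = 0.885), each with an adjusted p of 1.

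Among stronger peaks the direction depended on the limit. LEF1 peaks at or above a −log10 q-value of 2 numbered 45, 35 and 38 in control and 43, 41 and 32 in prednisolone libraries, and their share differed by 4.27 per 100000 (p = 0.3, exact permutation test), in the direction of the full lists. LEF1 peaks at or above a −log10 q-value of 5 numbered 24, 22 and 23 in control and 21, 14 and 17 in prednisolone libraries. Per 100000 such peaks of the list these were 87.9, 86.4 and 84.2, then 78.6, 54.7 and 78.1. Every prednisolone value lay below every control value, and the means differed by −15.7 (p = 0.1, exact permutation test, the smallest possible). Of all windows with such peaks 8.72% showed this pattern. TCF7L2 peaks at or above a −log10 q-value of 2 numbered only 3, 3 and 5 in control and 2, 1 and 1 in prednisolone libraries. Per 100000 they were 42.2, 39.4 and 51.4, then 30.8, 28.5 and 32.6, so that the means differed by −13.7 (p = 0.1, exact permutation test), and 9.05% of windows showed the pattern. At or above 5 they numbered 1, 0 and 1 in control and 1, 0 and 0 in prednisolone libraries, and the groups overlapped (difference −8.52, p = 1, exact permutation test).

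LEF1 and TCF7L2 differed at ERG on all 3 measures, and for the share of peaks the libraries did not overlap. The share of peaks in the window was lower for TCF7L2 (difference −15.6 per 100000, exact permutation test of the antibody labels within each treatment, p = 0.005, adjusted 0.0225). Every one of the 6 LEF1 libraries was above every TCF7L2 library, a pattern found in 14.7% of windows. The difference was −14.5 in set A and −16.5 in set B, and its sign within sets follows from the lack of overlap. TCF7L2 libraries also had fewer top peaks (difference −6.17, exact permutation test, p = 0.005, adjusted 0.0225). It was −5.75 in set A and −9.25 in set B. Within each treatment every LEF1 library had more top peaks than every TCF7L2 library, and 3.08% of windows did likewise. The sign within sets follows from this. Across treatments the ranges overlapped, at 13 to 21 for LEF1 and 6 to 16 for TCF7L2. A p of 0.005 is the smallest that the 400 relabellings allow. These relabellings treated same-numbered libraries of the antibodies as unpaired. Paired by number, each of the 3 measures had p = 0.03125 (exact sign-flip permutation test, the smallest possible, not adjusted). TCF7L2 summits lay nearer to the start, at a mean of 173.1 kb against 195.5 kb for LEF1 (difference −22.4 kb, exact permutation test, p = 0.01, adjusted 0.03). That difference was −21.3 kb in set A and −21.9 kb in set B, and the libraries overlapped, at 173.7 to 210.1 kb for LEF1 and 154.3 to 181.6 kb for TCF7L2. In the top lists it was −19.1 kb (exact permutation test, p = 0.04, not adjusted). No background over other genes is given for this measure, and the part of the weaker TCF7L2 calls in it was not tested. The antibodies were different reagents and their lists differed in strength as given above, so the reagent and the factor cannot be told apart.

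The TCF7L2 regions with a top peak in every replicate were few, and each overlapped a LEF1 region. In control cells the window had 10 LEF1 and 3 TCF7L2 regions with a top peak in all 3 libraries, and 3 overlapped, at 177.3, 212.8 and 221.6 kb. That is 30% of the LEF1 and 100% of the TCF7L2 regions, where the genome gave 21.2% and 47.7%. After prednisolone there were 7 LEF1 and 2 TCF7L2 regions, with 2 shared, at 177.3 and 221.6 kb. That is 28.6% of the LEF1 and 100% of the TCF7L2 regions, against 11.1% and 45.1% over the genome. With 3 and 2 TCF7L2 regions, these shares cannot be set apart from those of the genome.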

How the data were processed

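CUT&RUN peaks were used from 12 of 13 samples. Peaks were called with MACS2 on hg19, per the submitters' processing notes, with a separate list for each library. The aligner, the version of MACS2, duplicate handling and the control library are not given in the sources used here. The deposited columns used are the coordinates, the summit, the fold ratio, the −log10 p-value and the −log10 q-value that the caller gave each peak. These values served only to rank, filter or describe peaks within a list.

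A peak belonged to the window if it overlapped it by at least 1 bp. Peaks were merged into regions where they overlapped by at least 1 bp. Regions are named when every library of at least 1 group has a top peak in them. Top lists keep all peaks equal at the limit, since ordering them by chromosome would leave out chromosome 21. Groups were compared by exact permutation of labels over libraries, two-sided, with Python 3.11.15, numpy 2.4.6, pandas 2.3.3 and scipy 1.17.1, and merging was tested on simulated lists. At most 0.0737% of intervals were identical between any pair of lists. Alternatives were other rank and q-value limits, treatment of equal peaks, 50% overlap, the gene without flanks, left-out libraries and a replicate block. Counts for other ETS family genes were planned but not made, since no hg19 annotation was used. The gene, the window and the measures were chosen with earlier results of these data known.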

Additional observations from a re-analysis of the deposited data

How the results depend on the processing

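The limits are the 3 libraries per group, the unknown read depth and the weak TCF7L2 calls. Of 168 alternatives, 19 moved a count or a length by over 1.5 times, 7 reversed a sign, 1 fell short of a threshold passed before, and 141 did none of these. The 141 include values that shrank, such as the TCF7L2 top-peak difference, which was 0 with lists of 10000 (exact permutation test, p = 1). The LEF1 share of peaks differed by −15.7 among peaks at or above a −log10 q-value of 5, and leaving out single libraries gave −1.88 to 9.74. The TCF7L2 share differed by −13.7 and −8.52 at or above −log10 q-values of 2 and 5, and by −11.3 as a plain number of peaks. As a plain number of peaks the antibodies differed by −17.0 (exact permutation test, p = 0.265). TCF7L2 top peaks differed by 1.00 with lists of 5000, and LEF1 summits in the top lists by 11.8 kb. The cause was not tested in any of these. The region counts that follow are given without shares over the genome, so they show only how the calls move with the settings. With full lists 3 LEF1 and 3 TCF7L2 regions were lost. With 10000 top peaks 0 LEF1 regions were gained and 0 TCF7L2 regions lost. Requiring absence from the other treatment's full lists left 0 LEF1 gained, 0 LEF1 lost and 0 TCF7L2 lost. Without single libraries LEF1 gained and lost regions numbered 1 to 2 (2 gained without prednisolone 2 or 3, 2 lost without prednisolone 3), TCF7L2 lost regions 1 to 2 (2 without control 1) and TCF7L2 gained regions 0 to 1 (1 without prednisolone 3). With full lists the shared regions numbered 10 for LEF1 and 15 for TCF7L2 in control cells, and 6 and 9 after prednisolone. These counts have no share over the genome beside them either, and no treatment difference is read from them.

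Within each antibody, replicate numbers gave no sign of a pairing between control and prednisolone libraries, which does not exclude one. Deviations of same-numbered libraries from their group means had correlations of −0.0555 to 0.0109. Pairing by number between the antibodies was not tested in this way. There the sets by shortest peak split by the same numbers. For both antibodies prednisolone 2 had the longest list and prednisolone 3 the shortest. The relabelling tests of the antibodies treated same-numbered libraries as unpaired. With the replicate number as a replicate block, the antibody differences of −15.6 per 100000, −6.17 top peaks and −22.4 kb each had p = 0.03125 (exact sign-flip permutation over 6 pairs, the smallest possible). No treatment difference could go below p = 0.25 in this exact test with 3 pairs. Leaving out single libraries kept the antibody differences at −18.4 to −12.6 per 100000, −6.92 to −5.17 top peaks and −26.7 to −17.6 kb. The lengths of the longest region from LEF1 lists alone and at 50% overlap were added after seeing the data.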
